A study of Mus musculus with 18 samples.

Results

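Domain-swapped forms of Foxa3 were compared by chromatin immunoprecipitation sequencing (ChIP-seq), which maps where a protein sits on the genome, in induced hepatocyte-like (iHep) cells. The comparison took the 4 constructs that keep the DNA-binding domain of Foxa3, out of 8 domain-swapped Foxa constructs and 18 samples in the series. In Foxa3-N1 and Foxa3-N2 the N-terminal domain (NTD) came from Foxa1 or from Foxa2. In Foxa3-C1 and Foxa3-C2 the C-terminal domain (CTD) came from Foxa1 or from Foxa2. The question was which sites go with the source of the grafted domain, Foxa1 or Foxa2, at the N terminus, at the C terminus or at both. When peaks that overlap were joined, the 4 lists made 21225 regions, out of 24999 over the 8 Foxa lists.

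All 4 groups were C57BL/6 mouse embryonic fibroblasts, taken from embryos at 13.5 days post coitum, that received Hnf4alpha together with the chimeric Foxa3. The antibody named for Foxa3-N1 was against Foxa1, that for Foxa3-N2 against Foxa2, and that for both Foxa3-C1 and Foxa3-C2 against Foxa3. By the labels the C-terminal pair therefore differed in the grafted domain and not in the antibody, although each construct was a separate library. In the N-terminal pair the grafted domain and the antibody cannot be told apart. Each construct had 1 library, so nothing below has a replicate or a test between groups, and 95% Wilson intervals cover counting error only. Sequencing depth is unknown, because the files list peaks and not reads. Whether the cells' own Foxa genes were active, where the swaps were joined and which part of the protein each antibody sees is not stated in the labels. Positions are on mm9. No gene is named and no sequence is printed, because the tables at hand are on another build.

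Foxa1, Foxa2 and Foxa3 are forkhead proteins that work in gut and liver development and are known as pioneer factors, able to bind sites in closed chromatin. The forkhead domain in the middle of the protein contacts DNA and is nearly alike in the family, while the flanking N-terminal and C-terminal domains differ more and carry activities that regulate transcription. The Foxa genes, introduced with the nuclear receptor Hnf4alpha, turn fibroblasts toward a liver-cell state.

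List length differed in opposite directions at the 2 ends. With the Foxa1 domain 7625 peaks were listed at the N terminus and 7533 at the C terminus. With the Foxa2 domain the numbers were 16543 and 3594. The Foxa2 list was thus 2.17 times the longer at the N terminus, and the Foxa1 list 2.096 times the longer at the C terminus. To set the lists side by side, the 3594 strongest peaks of each were used, ranked by the authors' score, and this is called equal length below. These were 47.1% of the Foxa3-N1 list, 47.7% of Foxa3-C1, 21.7% of Foxa3-N2 and the whole of Foxa3-C2. The last peak kept had a score of 21.93 in Foxa3-N1, 18.45 in Foxa3-C1, 38.77 in Foxa3-N2 and 5.28 in Foxa3-C2. The next peak left out had 21.91, 18.45 and 38.74 in the first 3 lists, so the limit falls within a smooth run of scores.

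Few sites followed the source of the domain at both ends. At equal length 7585 regions were held by at least 1 list, and 197 of them (2.6%) had a peak in both lists with a Foxa1 domain and in neither list with a Foxa2 domain. The opposite pattern, both Foxa2 domains and neither Foxa1 domain, was shown by 193 regions (2.54%). At this length more regions went with the end that carried the graft. The N-terminal pair held 411 (5.42%) and the C-terminal pair 623 (8.21%), with no peak in the other pair. The Foxa3 antibody was used for the C-terminal pair only, so the end of the graft and the antibody cannot be told apart here. Regions of the 2 crossed kinds were 190 for Foxa3-N1 with Foxa3-C2 and 83 for Foxa3-C1 with Foxa3-N2. All 4 lists held 1025 regions (13.5%), and 3865 (51.0%) were in 1 list.

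**Figure D1:**
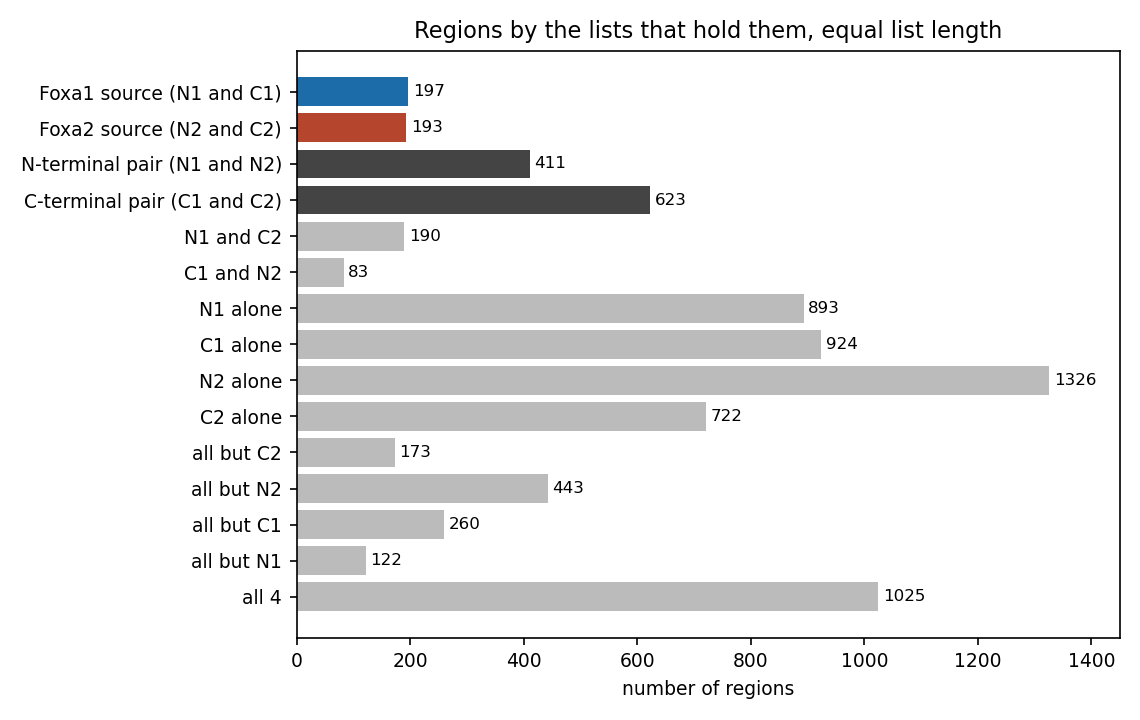
Number of regions (horizontal axis) for each of the 15 possible sets of lists that hold them, using the 3594 strongest peaks of each list. The bars for the Foxa1 source (197) and the Foxa2 source (193) are of nearly equal length, and both are shorter than those of the N-terminal pair (411) and the C-terminal pair (623).

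With the full lists the balance moved with list length. Regions following Foxa1 then numbered 380 of 21225 (1.79%) and those following Foxa2 165 (0.777%). The regions were largely not those found at equal length: 51 were in both sets for Foxa1, which is 25.9% of the equal-length set and 13.4% of the full-list set. For Foxa2 the number was 45, or 23.3% and 27.3%. The 9707 regions held by Foxa3-N2 alone made up 45.7% of all regions of the full lists. The N-terminal pair then held 1874 regions (8.83%) and the C-terminal pair 376 (1.77%). In Foxa3-N1 with Foxa3-C2 there were 38 (0.179%), and in Foxa3-C1 with Foxa3-N2 887 (4.18%). The C-terminal pair thus held about as many regions as the Foxa1 source there, and the low number for Foxa3-C1 with Foxa3-N2 was seen at equal length and not with full lists.

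The strongest site of the Foxa1 source was chr1:117596285-117596986, which had rank 308 in Foxa3-N1 and rank 142 in Foxa3-C1, with scores of 105.0 and 85.5. Foxa3-N2 had a peak there at rank 5023 (score 30.2) and Foxa3-C2 had none. The next site, chr6:66294161-66294899, ranked 743 in Foxa3-N1, 144 in Foxa3-C1 and 10995 in Foxa3-N2, and had no Foxa3-C2 peak. A site on chromosome 13 (chr13:115097172-115097703) had rank 330 in Foxa3-N1, rank 777 in Foxa3-C1 and, in the longer Foxa3-N2 list, rank 13545. The site chr5:3364179-3364758 was the strongest of these 10 in Foxa3-N1, at rank 175, and lay at 1645 in Foxa3-C1. The site chr14:58787789-58788344, at ranks 811 and 642, was the one among the 10 that had no peak in either full Foxa2-domain list. In the other 9 the Foxa3-N2 peak was present but lower down, between rank 3864 and rank 13545.

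The same held for most of the set. Of the 197 sites, 146 had a Foxa3-N2 peak ranked beyond the equal-length limit, 74 of them up to rank 7188. The other 51 (25.9%) had no peak in either full list of the Foxa2 domain. A lower rank in the longer list was not always a lower score. The site chr3:40799214-40800304 scored 34.4 in Foxa3-N2, 33.2 in Foxa3-C1 and 74.8 in Foxa3-N1. The kind of score is not stated, so values from separate libraries may not be comparable. Since Foxa3-C2 was used whole, all 197 lacked a listed Foxa3-C2 peak. The sites were of middling to low strength, with a median rank of 2247 in Foxa3-N1 and 2200 in Foxa3-C1. Sites of all 4 lists had median ranks of 737 and 1005 in the same lists. The other sets held by 2 lists were nearer. The median Foxa3-N1 rank was 2129 for the N-terminal pair and 2255 for Foxa3-N1 with Foxa3-C2. The median Foxa3-C1 rank was 1608 for the C-terminal pair and 2718 for Foxa3-C1 with Foxa3-N2. Of the 197 sites, 10 lay within 50 kb of another site of the set. The count was 2 of 190 for Foxa3-N1 with Foxa3-C2 and 130 of 623 for the larger C-terminal pair. Chromosome 1 held the most of the 197 sites, 19 (9.64%, against 7.502% of all 7585 regions).

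The strongest site of the Foxa2 source was chr7:73484342-73484904, at rank 291 in Foxa3-N2 (score 145.9) and rank 975 in Foxa3-C2 (score 21.6). It had a Foxa3-N1 peak at rank 6629 (score 11.7) and none in Foxa3-C1. The site chr5:20680757-20681208 carried a peak in all 4 full lists, at ranks 1368 and 584 with the Foxa2 domains and 5369 and 5725 with the Foxa1 domains. The site chr6:39142918-39143434 did so as well, at 891 and 1067 against 7238 and 4543. On chromosome 10 the site chr10:26640082-26640673 had rank 136 in Foxa3-N2, the best Foxa3-N2 rank of the whole set, and rank 2089 in Foxa3-C2, with no peak in either Foxa1-domain list. The site chr5:58347777-58348257 also lacked both Foxa1-domain peaks and ranked alike in the other lists, at 1263 and 1200. Of the 10 best-ranked sites, 7 had a Foxa3-N1 peak and 4 a Foxa3-C1 peak, all ranked beyond the equal-length limit.

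Over the 193 sites, 71 had peaks beyond the equal-length limit in both full Foxa1-domain lists, 43 in Foxa3-N1 alone, 34 in Foxa3-C1 alone and 45 (23.3%) in neither. Their median rank was 2057 in Foxa3-N2 and 2716 in Foxa3-C2, below the 872 and 792 of the sites of all 4 lists. In the other sets of 2 lists the median Foxa3-N2 rank was 1821 (N-terminal pair) and 2313 (Foxa3-C1 with Foxa3-N2). The median Foxa3-C2 rank was 1862 (C-terminal pair) and 2270 (Foxa3-N1 with Foxa3-C2). Within 50 kb of another site of the set lay 6 of the 193 sites. Chromosome 6 held 28 of them (14.5%), against 8 of the Foxa1 set (4.06%) and 7.15% of all regions. High shares were also seen in sets with Foxa3-N2 and without Foxa3-C2. They were 10.6% for Foxa3-N2 alone, 8.76% for the N-terminal pair and 9.64% for Foxa3-C1 with Foxa3-N2. The share was 6.36% for regions in all lists but Foxa3-C2. Foxa3-N1 with Foxa3-C2, a set without Foxa3-N2, had 16 of 190 regions there (8.42%).

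**Figure D2:**
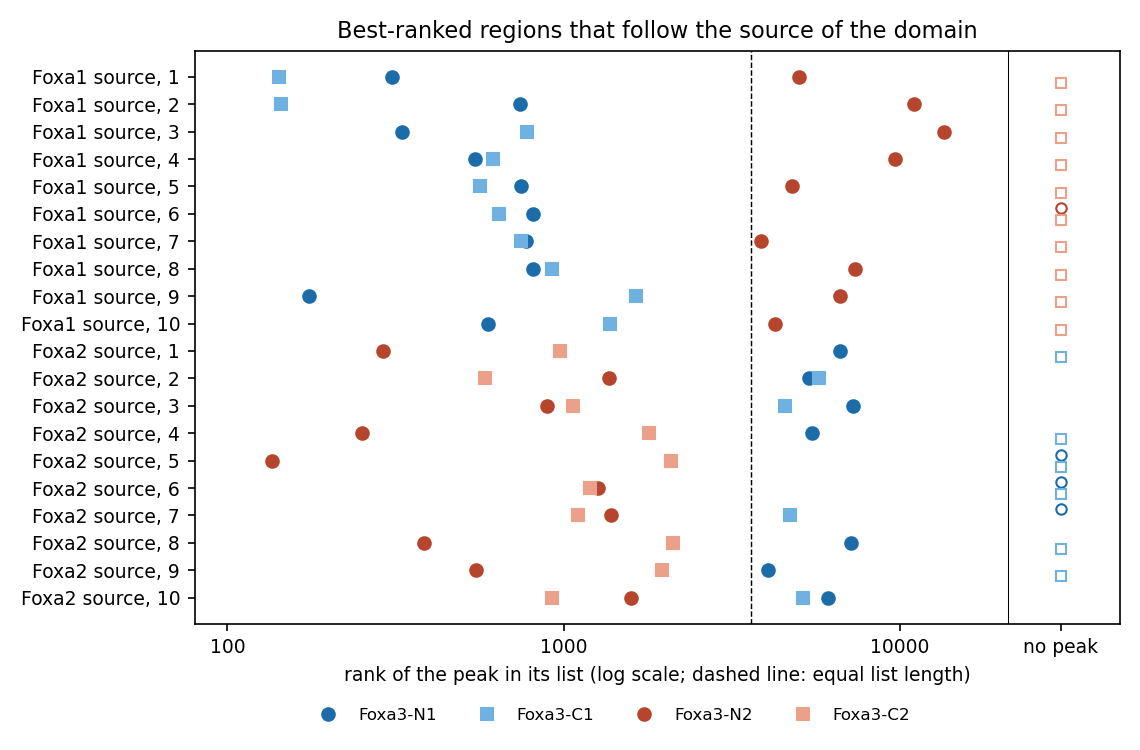
Rank of the peak in each of the 4 lists (horizontal axis, log scale) for the 10 best-ranked regions of each source, numbered in order of mean rank. Filled symbols are peaks, open symbols at the right mark lists with no peak, circles are N-terminal and squares C-terminal grafts, and the dashed line is the equal list length of 3594. In the Foxa1 set 9 of 10 regions carry a Foxa3-N2 peak to the right of the line and all 10 lack a Foxa3-C2 peak.

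At the N terminus the strongest sites were bound whichever domain was grafted, and differences lay lower in the lists. Of the 250 strongest Foxa3-N1 peaks, 1 had no counterpart in the full Foxa3-N2 list, and of the 250 strongest Foxa3-N2 peaks, 3 had none in Foxa3-N1. Between ranks 1798 and 3594 the shares without a counterpart were 22.5% (20.6 to 24.5%) for Foxa3-N1 and 41.6% (39.3 to 43.9%) for Foxa3-N2. The full list searched was longer in the first case, with 16543 peaks against 7625. At equal length 52.0% of the Foxa3-N1 peaks (50.4 to 53.7%) met a Foxa3-N2 peak.

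The best-ranked Foxa3-N1 site with no Foxa3-N2 peak at all was chr12:100444997-100445739, at rank 119. It was held by every Foxa list except Foxa3-N2, with rank 214 in Foxa3-C1 and 412 in Foxa3-C2. The others of the first 5 had fewer lists. The site chr1:155509567-155510140 (rank 338) was otherwise seen in Foxa3-C1 at rank 5354, and chr14:71848944-71849432 (rank 399) in Foxa2-C3, which is Foxa2 with the Foxa3 CTD. The site chr8:90002769-90003344 ranked 390 in Foxa3-N1, 710 in Foxa3-C1, 497 in Foxa3-C2 and 73 in Foxa1-N3, which is Foxa1 with the Foxa3 NTD. In the other direction, the chromosome 10 site of the Foxa2 source came first among Foxa3-N2 sites with no Foxa3-N1 peak. It was followed by chr6:5446353-5446900 (rank 227) and chr1:36568323-36568861 (rank 289), both seen in Foxa2-C3 besides, which shares the Foxa2 NTD and the Foxa2 antibody. The site chr12:89082755-89083801 (rank 294) was found in Foxa3-N2 and in none of the 7 other Foxa lists.

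At the C terminus, where the antibody was the same, the pair was more alike. At equal length 61.5% of the Foxa3-C1 peaks (59.9 to 63.1%) met a Foxa3-C2 peak, and this was the highest share among the 6 pairs of these lists. Of the 250 strongest Foxa3-C2 peaks 0 lacked a Foxa3-C1 counterpart (0 to 1.51%), and of the 250 strongest Foxa3-C1 peaks 3 lacked one in Foxa3-C2. Between ranks 1798 and 3594 the shares were 57.0% (54.7 to 59.3%) for Foxa3-C1 and 28.2% (26.1 to 30.3%) for Foxa3-C2. Here the Foxa1-domain list was the longer one searched, so the order of the 2 shares again went with list length.

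**Figure D3:**
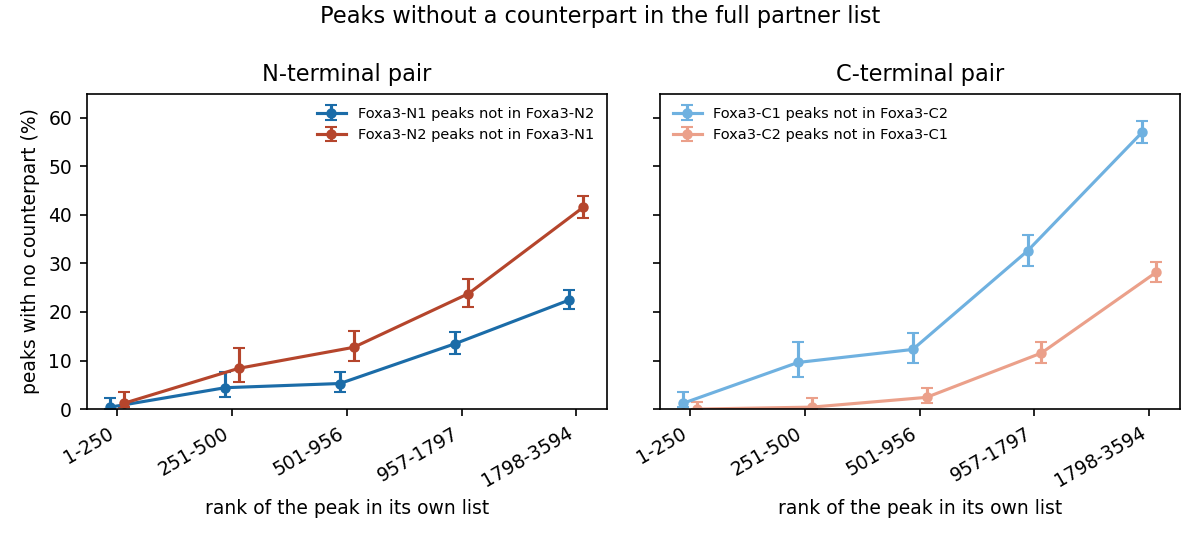
Percent of peaks with no counterpart in the full partner list (vertical axis) by rank in their own list (horizontal axis), with 95% Wilson intervals. The share climbs with rank in all 4 curves, and in each pair the curve searched against the shorter list (Foxa3-N2 on the left, Foxa3-C1 on the right) is the higher one from rank 251 on, with overlapping intervals at ranks 251 to 500 on the left.

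Among Foxa3-C1 sites with no Foxa3-C2 peak, the sites on chromosomes 1 and 6 that lead the Foxa1 source came 2nd and 3rd by rank. The site chr10:96192718-96193373 had rank 255 in Foxa3-C1 and was held by every Foxa list except Foxa3-C2, at rank 1326 in Foxa3-N1 and 802 in Foxa3-N2. Among Foxa3-C2 sites with no Foxa3-C1 peak, chr13:45357303-45357854 ranked first, at 501. It was present with both N-terminal grafts, at ranks 717 and 1939. The site chr14:118988420-118988924 (rank 684) was found in none of the 7 other Foxa lists, and chr19:21888907-21889473 (rank 761) ranked 171 in Foxa3-N2 and 2843 in Foxa3-N1. Of the 956 strongest Foxa3-C2 peaks 12 (1.26%) had no counterpart in the full Foxa3-C1 list, and of the 956 strongest Foxa3-C1 peaks 83 (8.68%) had none in the shorter full Foxa3-C2 list. With 956 peaks on both sides, 364 regions were in each list and not in the other, out of 2100 held by any of the 4 lists at that length.

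Some regions of the C-terminal pair also met peaks of a library whose labels name an Hnf4alpha antibody. Its labels conflict, since the title names a Foxa3 construct and the other labels Foxa1 with Hnf4alpha, so what it mapped is uncertain. Of the 623 regions of the C-terminal pair 55 (8.83%) did so, against 135 of all 7585 (1.78%). For the source-following sets the numbers were 1 of 197 and 3 of 193, and the counts without these regions were 196 and 190.

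The next question was whether sites that differ between Foxa1 and Foxa2 domains at one end differ in the same direction at the other end. At equal length 1723 regions (22.7%) were in Foxa3-N1 and not in Foxa3-N2. Of these, 197 (11.4%, 10.02 to 13.0%) were in Foxa3-C1 and not in Foxa3-C2, and 190 (11.03%, 9.63 to 12.6%) were in Foxa3-C2 and not in Foxa3-C1. At equal length these shares were thus alike within counting error, which does not cover variation between libraries. The reverse set of 1724 regions (22.7%), in Foxa3-N2 and not in Foxa3-N1, was uneven. The same-source list Foxa3-C2 held 193 of them without Foxa3-C1 (11.2%, 9.79 to 12.8%), whereas Foxa3-C1 held 83 without Foxa3-C2 (4.81%, 3.90 to 5.93%). With the 956 strongest peaks of each list the corresponding numbers were 51 and 54 for the Foxa1 NTD, and 39 (5.70 to 10.4%) and 23 (3.05 to 6.74%) for the Foxa2 NTD, so the latter intervals overlapped. Both answers changed with the full lists, where Foxa3-C1 is the longer of the C-terminal pair. For the Foxa1 NTD 380 regions then had the same source at the C terminus and 38 the other, and for the Foxa2 NTD 165 had the same source and 887 the other.

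Read from the C terminus the unevenness lay on the Foxa1 side. Of the 1377 regions (18.2%) in Foxa3-C1 and not in Foxa3-C2, 197 were in Foxa3-N1 alone of the N-terminal pair and 83 in Foxa3-N2 alone. Of the 1365 regions (18%) in Foxa3-C2 and not in Foxa3-C1, 193 were in Foxa3-N2 alone and 190 in Foxa3-N1 alone. Both equal-length readings rest on the low number shared by Foxa3-C1 and Foxa3-N2. These lists were also the least alike of the 6 pairs: 39.1% of the Foxa3-C1 peaks (37.5 to 40.7%) met a Foxa3-N2 peak at equal length. The values were 51.2% for Foxa3-N1 with Foxa3-C1, 44.5% for Foxa3-N2 with Foxa3-C2 and 53.3% for Foxa3-N1 with Foxa3-C2. At equal length both N-terminal lists thus met Foxa3-C2 at least as often as Foxa3-C1, whatever the source of their own domain. With full lists, where Foxa3-C1 is longer, 27.5% of the Foxa3-N2 peaks met Foxa3-C1 and 16.7% met Foxa3-C2.

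Sites listed for all 4 constructs were compared by their order, so that each list ranked the same regions. The 2042 regions present in all 4 full lists were ordered by rank within each list. The order was most alike in the C-terminal pair (Spearman's rank correlation 0.62 across regions, a description without a test) and least alike between Foxa3-C1 and Foxa3-N2 (0.23). The correlation was 0.51 in the N-terminal pair, 0.52 for Foxa3-N1 with Foxa3-C2, 0.48 for Foxa3-N1 with Foxa3-C1 and 0.34 for Foxa3-N2 with Foxa3-C2. Median displacement between the Foxa1 and the Foxa2 domain was 365.5 places at the N terminus and 312 places at the C terminus.

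Displacements at the 2 ends were nearly unrelated across these regions. Spearman's rank correlation between the N-terminal and the C-terminal displacement was 0.08 over the 2042 regions, and 1086 of them (53.2%) moved in the same direction at both ends. Displacements of at least 510.5 places were seen at 738 regions at the N terminus and at 612 at the C terminus. At both ends together, 74 regions moved that far toward the Foxa1 domain and 65 toward the Foxa2 domain, while 49 and 48 moved that far in opposite directions.

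**Figure D4:**
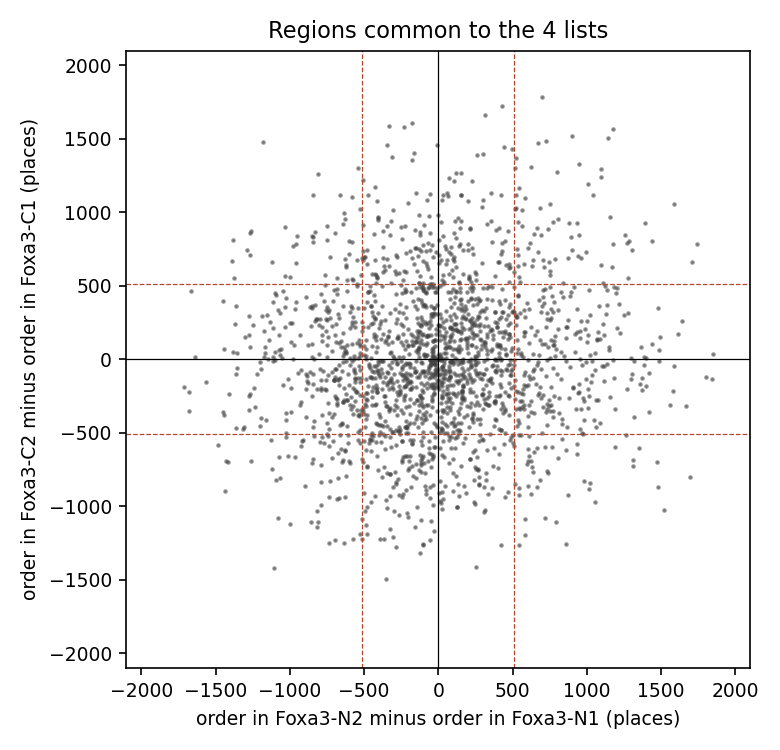
Each point is one of the 2042 regions common to the 4 lists. The horizontal axis gives its displacement in order at the N terminus and the vertical axis that at the C terminus, in places. Positive values mean a better place with the Foxa1 domain, and dashed lines are at 510.5 places. The cloud is nearly round, with 74 points beyond the lines at the upper right and 65 at the lower left against 49 and 48 in the other corners.

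Sites that moved far at both ends, chosen after their values were seen, had a peak in every list at unequal places in the order. The region chr13:46508284-46508976 stood at place 855 of 2042 in Foxa3-N1 and 218 in Foxa3-C1, but at 2032 in Foxa3-N2 and 1788 in Foxa3-C2. The region chr13:34694670-34695332 stood at 273 and 140 with the Foxa1 domains and at 1419 and 1644 with the Foxa2 domains. Toward Foxa2, the chromosome 5 site of the Foxa2 source (chr5:20680757-20681208) stood at 796 and 498 with the Foxa2 domains and at 1900 and 1919 with the Foxa1 domains. The region chr4:135232327-135232892 stood at 545 and 669 against 1546 and 1790.

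Lists that had no part in choosing the sites were then examined. Foxa1-C3 and Foxa2-C3, which are Foxa1 and Foxa2 with the Foxa3 CTD, were cut to 4807 peaks each. They share the NTD and the antibody with Foxa3-N1 and Foxa3-N2. Sites of the Foxa1 source were found equally often in both, 42.1% in Foxa1-C3 (35.5 to 49.1%) and 43.1% in Foxa2-C3 (36.4 to 50.1%), near the shares of all 7585 regions, 44.9% and 46.9%. Sites of the Foxa2 source were found more often, 59.1% in Foxa1-C3 (52.0 to 65.8%) and 72.5% in Foxa2-C3 (65.8 to 78.3%), with 51 sites in Foxa2-C3 alone and 25 in Foxa1-C3 alone. Foxa2-C3 also stood above Foxa1-C3 in the larger set of Foxa3-N2 and not Foxa3-N1, which includes the sites of the Foxa2 source. These regions were in Foxa2-C3 in 52.0% of cases (49.7 to 54.4%) and in Foxa1-C3 in 40.8% (38.5 to 43.1%). The latter share was below the 44.9% of all regions. Regions of Foxa3-N1 and not Foxa3-N2 were in Foxa2-C3 in 33.0% (30.8 to 35.2%) and in Foxa1-C3 in 34.4% (32.2 to 36.6%).

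Foxa1-N3 and Foxa2-N3 carry the CTD of Foxa1 and Foxa2 with the Foxa3 NTD and were mapped, like the C-terminal pair, with the Foxa3 antibody. Their DNA-binding domain is also that of Foxa1 or Foxa2, so it cannot be told apart from the CTD. With 956 peaks each, the intervals for the 2 lists overlapped in both sets that differ at the C terminus. Both sets were met less often than all regions, of which 11.9% were in Foxa1-N3 and 12.3% in Foxa2-N3. Regions of Foxa3-C1 and not Foxa3-C2 were found in 5.59% (4.50 to 6.93%) and 5.45% (4.37 to 6.77%) of cases. Regions of Foxa3-C2 and not Foxa3-C1 were found in Foxa1-N3 in 5.13% (4.08 to 6.43%) and in Foxa2-N3 in 3.52% (2.66 to 4.63%). Of these, 58 were in Foxa1-N3 and not Foxa2-N3, and 36 the reverse. For regions of Foxa3-C1 and not Foxa3-C2 the numbers were 56 and 54. For the sets that differ at the N terminus, regions of Foxa3-N1 and not Foxa3-N2 were in Foxa1-N3 more often, in 14.3% of cases (12.8 to 16.1%), than in Foxa2-N3, in 10.6% (9.25 to 12.2%). Those of Foxa3-N2 and not Foxa3-N1 were in them in 1.51% (1.03 to 2.20%) and 1.39% (0.937 to 2.06%). Sites following Foxa1 at both ends were in Foxa1-N3 in 24 of 197 cases (12.2%) and in Foxa2-N3 in 21 (10.7%), near the 11.9% and 12.3% of all regions at this length. Sites following Foxa2 were there in 1 (0.518%, 0.0915 to 2.88%) and 3 of 193 cases (1.55%, 0.530 to 4.47%). These low shares held for the strongest 956 peaks and not for the full Foxa2-N3 list of 5230 peaks. There 47.7% of the sites following Foxa2 had a peak (40.7 to 54.7%), against 48.5% of all regions, and 62.9% of the sites following Foxa1 did (56.0 to 69.4%). The same full Foxa2-N3 list held 39.8% (37.2 to 42.4%) of the regions of Foxa3-C1 and not Foxa3-C2. For regions of Foxa3-C2 and not Foxa3-C1 the share was 44.3% (41.7 to 47.0%). The full Foxa1-N3 list has 956 peaks, so no longer list could be set beside it.

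**Figure D5:**
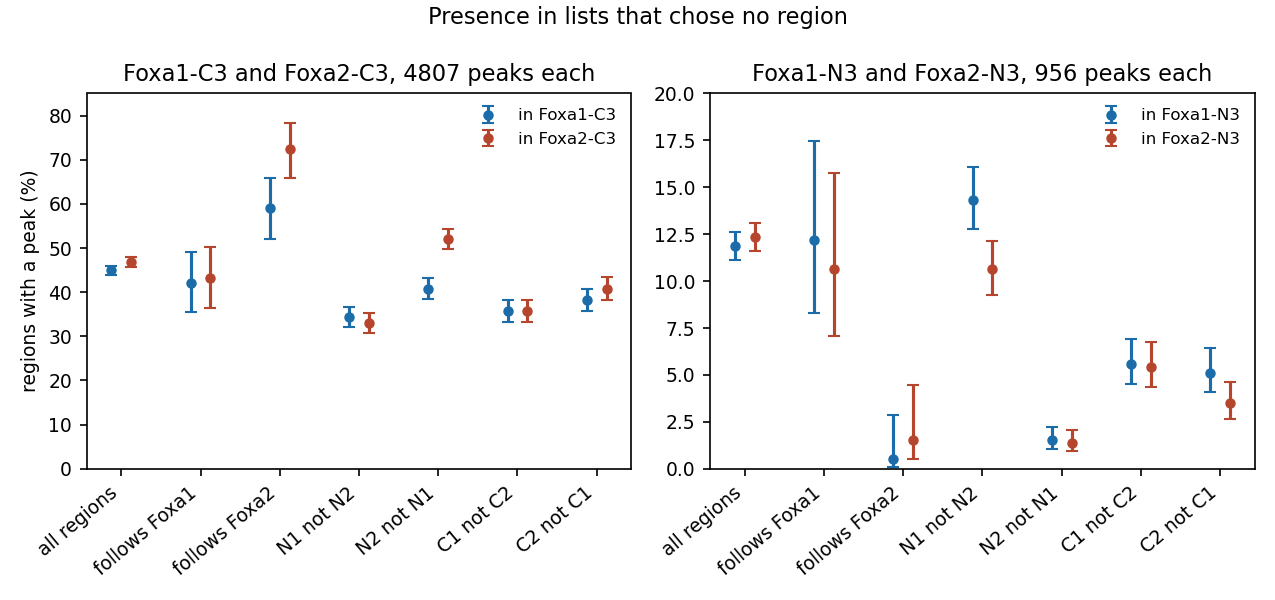
Percent of regions with a peak (vertical axis) in Foxa1-C3 and Foxa2-C3 (left, 4807 peaks each) and in Foxa1-N3 and Foxa2-N3 (right, 956 peaks each) for the sets of regions named on the horizontal axis, with 95% Wilson intervals. On the left the Foxa2 list stands above the Foxa1 list for regions following Foxa2 (72.5 against 59.1%) and for regions of Foxa3-N2 and not Foxa3-N1 (52.0 against 40.8%); on the right, at 956 peaks, the regions following Foxa2 lie near 0 in both lists, which did not hold for the full Foxa2-N3 list (47.7%).

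The strongest sites were shared by the 4 constructs. The site chr14:100044840-100046099 ranked 2, 5, 1 and 9 in Foxa3-N1, Foxa3-C1, Foxa3-N2 and Foxa3-C2. The sites chr3:113242355-113243256, with ranks from 2 to 17, and chr4:56114986-56115750, with ranks from 4 to 27, came next by mean rank. The first 5 such sites were present in all 8 Foxa lists.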

How the data were processed

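Peak lists of 9 ChIP libraries were used, 4 of them for the comparison; the 9 input samples were not analysed here. BWA 0.6.2, MACS2 2.1.0, bedtools 2.16.2 and build mm9 are named in the submitters' processing notes; settings and the use of the input are not stated there. The deposited files give positions in bp and a score for each peak, whose kind is not stated. The score is the authors' own and was used to rank peaks within a list. A pooled score limit across lists was used only for an alternative in the closing section. Starts were converted to count from 1. Peaks overlapping by 1 bp were merged into regions; 61 of 21225 regions held several peaks of one list. Equal length means the 3594 strongest peaks, ties broken by position.

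On 8 of 20 chromosomes peaks lie beyond the last gene of the GRCm38 table, so the planned gene lists were not used. Named were the 10 regions per source and the 5 held by all 4 lists with the best mean rank, and from the 5 best-ranked per list without a counterpart, chromosome 18 left out. Members, lists and rules were chosen with earlier results of these data known. Computations used scipy 1.17.1, numpy 2.4.6, pandas 2.3.3 and matplotlib 3.10.9 under Python 3.11.15. The overlap routine equalled bedtools 2.31.1 in 24 of 24 comparisons and was tested on simulated data. Alternatives are given in the closing section.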

Additional observations from a re-analysis of the deposited data

Results flagged for a closer look

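Lists with the Foxa1 and the Foxa2 domain differed in length in opposite directions at the 2 ends of Foxa3. The log2 ratio of the number of peaks with the Foxa1 domain over that with the Foxa2 domain was -1.12 at the N terminus and 1.07 at the C terminus. It stands out because the signs are opposite, with 1 library on each side; the difference was not tested. At the N terminus the antibody differed too, and depth is unknown.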

How the results depend on the processing

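The counts of regions following a source kept within 1.5 times their value when peaks within 1 kb were merged, when peaks wider than 1000 bp were left out and when regions met by the Hnf4alpha library were left out. They moved with list length and threshold. With peaks above the pooled median score of 18.98 the full lists gave 240 regions for Foxa1 and 19 for Foxa2, and the cause was not tested. This limit compares scores across lists and keeps unequal parts of them. The median score was 20.97 in Foxa3-N1, 17.70 in Foxa3-C1, 19.75 in Foxa3-N2 and 15.45 in Foxa3-C2. With 1797 peaks per list the counts were 103 and 72, and with 956 they were 51 and 39; fewer peaks entered by construction. Requiring absence from the full lists of the other source gave 51 and 45. Without one construct in turn, presence in a single list was enough on its side. The counts then ran for Foxa1 from 615 (without Foxa3-C2) to 2385 (without Foxa3-N1) with full lists and from 371 (without Foxa3-N2) to 1121 (without Foxa3-N1) at equal length. For Foxa2 they ran from 331 (without Foxa3-N2) to 9873 (without Foxa3-C2) and from 315 (without Foxa3-C1) to 1520 (without Foxa3-C2). The share of Foxa3-N1 peaks met by Foxa3-N2 was 49.6% with 1797 peaks, 47.2% with 956 and 84.6% against the full list. The share of Foxa3-C1 peaks met by Foxa3-C2 was 56.9% under reciprocal 50% overlap; with peaks of different width such overlap is harder to reach. The rank correlation between the displacements stayed at 0.08 without wide peaks and without Hnf4alpha library regions, both chosen after seeing the data. With the full Foxa2-N3 list in place of 956 peaks, also chosen later, the shares of sites following Foxa1 and Foxa2 were 62.9% and 47.7%, and with the full Foxa2-C3 list they were 80.7% and 95.9%. No paired analysis was possible because each construct had 1 library and no result comes from a test. Depth is unknown, so a site missing from a list was not detected there rather than shown to be unbound.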

Other observations

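Foxa3-N2 had more of its strongest peaks on chromosome 6 than the other 3 lists. Of its 3594 strongest peaks 317 lay there (8.82%, 7.94 to 9.79%), against 220 in Foxa3-N1 (6.12%, 5.38 to 6.95%), 221 in Foxa3-C1 (6.15%, 5.41 to 6.98%) and 241 in Foxa3-C2 (6.71%, 5.93 to 7.57%). Over the 20 chromosomes and 4 lists this was the highest ratio of one list to the mean of the other 3, 1.39, followed by 1.20 on chromosome 15, also in Foxa3-N2. In each of the 6 windows of 25 Mb along chromosome 6 Foxa3-N2 had the most peaks, but by unequal margins. It had 40 against 29 to 36 in the first window and 64 against 34 to 49 in the last. In the window from 75 to 100 Mb it had 54 against 49 to 53. The 28 chromosome 6 regions that followed the Foxa2 source were spread over all 6 windows. This was noticed after the data were seen, and its cause was not tested.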
